A study of Homo sapiens with 7 samples.

Results

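The integrated stress response was followed through 10 genes: EIF2AK1, which encodes the haem-regulated eIF2alpha kinase HRI, ATF4, which encodes the transcription factor at the centre of the response, and 8 genes known as targets of ATF4. They were taken by symbol from a table of 32738 gene rows, all 10 were found once, and all 10 were among the 10212 genes abundant enough to test. The cells were HUDEP-2, an immortalised line of human erythroid progenitors that can be driven towards red blood cells. Each culture received a guide by lentivirus for CRISPR interference, a method that uses the guide RNA to bring a catalytically dead Cas9 with a repressor to chosen DNA. Each was then kept for 72 h in erythroid differentiation medium with serum, plasma, transferrin, heparin, insulin and 3 IU/ml erythropoietin. Before that they had been grown with stem cell factor, erythropoietin, dexamethasone and doxycycline. The groups were guide 1 (2 libraries), guide 2 (2 libraries) and a non-targeting guide (3 libraries), and the labels place guides 1 and 2 at an enhancer of TMCC2, which encodes a membrane protein with coiled coils. Nothing in them says that libraries of a group came from separate cultures. The spread that the p-values rest on is that between these libraries, and it may be technical.

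HRI is kept inactive by haem in developing red cells. When haem or iron is short, or under oxidative or mitochondrial stress, it phosphorylates the translation factor eIF2alpha, which slows the synthesis of globin and most other proteins. The mRNA of ATF4 is translated better in that state, and ATF4 then switches on genes for amino acid supply, for redox control, for the restraint of mTORC1 and for the winding down of the response. Phosphorylation and ATF4 protein were not measured here, and the values below are RNA levels of bulk cultures, in which fewer cells of a type and less RNA per cell cannot be told apart.

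ATF4 binds DNA as a dimer with C/EBP proteins at composite sites whose core reads TGATGNAA, where N is any base. This core was searched on both strands in RefSeq promoters (GRCh38.p14), from 250 bases before to 50 bases after each annotated start. Promoters were matched by symbol for 9 of the 10 genes, and 2 of the 9 held a match, ASNS and CHAC1. Of 73 further genes of the response, listed by role with earlier results of these data known, 48 were matched and 13 held one. Of all 27305 symbols in the RefSeq promoter set, 4.46% held one in any of their promoters. The matches before the start are shown for the genes described below, because they let the regulatory letters be read beside the RNA levels. Each is written 5′ to 3′ on the strand of its gene, with the core, or its reverse complement, in capitals.
ASNS, chr7:97872458-97872487: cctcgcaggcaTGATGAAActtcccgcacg
CHAC1, chr15:40953251-40953280: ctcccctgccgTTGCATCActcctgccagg
CEBPG, chr19:33374060-33374089: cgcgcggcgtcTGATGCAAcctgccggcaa
HERPUD1, chr16:56931955-56931984: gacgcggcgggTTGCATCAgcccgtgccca
SLC1A5, chr19:46784893-46784922: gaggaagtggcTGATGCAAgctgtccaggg
ATF3, chr1:212565205-212565234: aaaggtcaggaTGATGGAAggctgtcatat
PPP1R15B, chr1:204412026-204412055: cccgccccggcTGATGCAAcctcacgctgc
Counted from the start, the core lay at positions -68 to -61 in ASNS, which is on the minus strand of chromosome 7, and at -209 to -202 in CHAC1, on the plus strand of chromosome 15. CEBPG, HERPUD1 and ATF3 are on plus strands, and SLC1A5 and PPP1R15B on minus strands. A match is a description of these letters and not a measured binding site, and a promoter without one says nothing of sites outside its window.

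The libraries held 9780800 to 11350113 counts. Their globin share was 23.0% to 26.9%, and all 15 erythroid markers exceeded 1 CPM. Of markers of neutrophils and monocytes, lymphocytes, and mast cells and basophils, 1 of 10, 0 of 9 and 1 of 4 did, with MPO, CD3E and MS4A2 among those at 0. Megakaryocyte and platelet markers exceeded it for 2 of 8, with sums of 205 to 214 CPM with guide 1, 183 to 198 with guide 2 and 177 to 208 in the non-targeting libraries, and with PF4, PPBP and VWF at 0. Markers of fibroblasts, stroma and endothelium exceeded it for 2 of 8, with sums of 11.3 to 12.5, 12.3 to 12.7 and 11.7 to 13.2 CPM in that order of groups, and with COL1A2, DCN, LUM and CDH5 at 0. Sums of the mast cell and basophil markers were 10.5 to 10.7 CPM with guide 1. They were 7.63 to 8.55 CPM with guide 2 and 9.52 to 11.8 CPM in the non-targeting libraries. TMCC2, the gene whose enhancer the guides were aimed at, stood at 229 and 219 CPM with guide 1, 229 and 260.4 CPM with guide 2, and 832, 839 and 937 CPM in the non-targeting libraries, with each count divided by the TMM-scaled library size, as edgeR's CPM. The guides' libraries lay well below all non-targeting ones, and the fit gave log2 values of -1.96 (SE 0.12, adjusted p = 8.58e-07 by the edgeR quasi-likelihood test) with guide 1 and -1.83 (SE 0.12, adjusted p = 1.98e-06 by the edgeR quasi-likelihood test) with guide 2. Non-targeting replicate 1 stood apart: the deviations of its genes from their mean over the 7 libraries followed transcript GC content with a Spearman rho of -0.70 across genes, against -0.31 to 0.43 in the other 6. In replicate order, rho was 0.42 and 0.28 with guide 1, and 0.09 and -0.31 with guide 2. It was 0.43 and 0.32 in non-targeting replicates 2 and 3. This trend therefore differed between the guides as well. Fold changes of the 10 genes without it are given after those from all 7 libraries.

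Among the 10 genes, levels per length of transcript were highest for ATF4 and lowest for PHGDH. Dividing CPM by the length of the longest coding transcript in GENCODE v29 gave 181 ± 16.2 CPM per kb for ATF4 (SD, n = 7 libraries), 173 ± 22.1 CPM per kb for TRIB3 and 158 ± 25.7 CPM per kb for DDIT4. CHAC1 followed at 106 ± 13.1 CPM per kb, ASNS at 99.4 ± 6.504 CPM per kb, SESN2 at 79.9 ± 4.33 CPM per kb, EIF2AK1 at 62.5 ± 2.39 CPM per kb and DDIT3 at 62.4 ± 13.5 CPM per kb. PSAT1 stood at 41.1 ± 5.22 CPM per kb and PHGDH at 3.59 ± 0.757 CPM per kb. Ranges over the libraries overlapped between neighbours from ATF4 to ASNS and from EIF2AK1 to PSAT1, so those neighbours were not separated by the range of their libraries, although DDIT4 was above CHAC1 in 7 of 7. Genes further apart in the order could be separate: the range of ATF4 lay above those of CHAC1 and ASNS, and that of EIF2AK1 above that of PSAT1. Neighbouring ranges did not overlap between ASNS and SESN2, between SESN2 and EIF2AK1, or between PSAT1 and PHGDH. PSAT1 and PHGDH encode neighbouring enzymes of serine synthesis, and PSAT1 was above PHGDH in 7 of 7 libraries. PHGDH rested on 68 to 133 counts a library, and each of the other genes on at least 511.

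EIF2AK1 was by far the most abundant of the 4 eIF2alpha kinase genes in these cells. Its level was 59.8 to 66.9 CPM per kb over the 7 libraries. EIF2AK4, which encodes the amino acid sensor GCN2, had 1.53 to 2.51 CPM per kb. EIF2AK2, which encodes the double-stranded RNA sensor PKR, had 0.363 to 0.607 CPM per kb, and EIF2AK3, which encodes the endoplasmic reticulum kinase PERK, had 0.0696 to 0.261 CPM per kb. Within single libraries EIF2AK1 exceeded EIF2AK4 by 24.1 to 40.9 times on this scale. The level of PERK transcripts is that of a few reads, at 0.323 to 1.21 CPM.

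**Figure D1:**
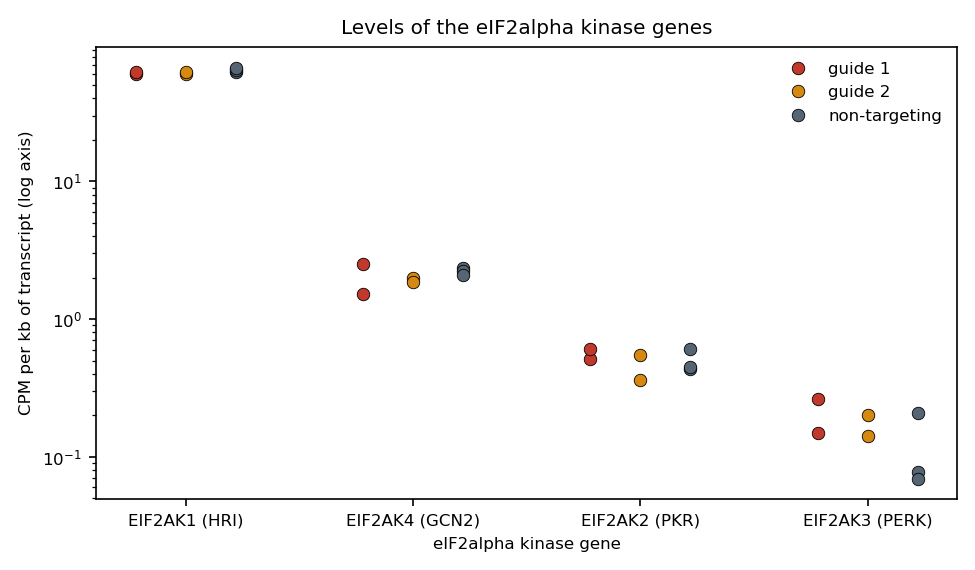
Levels of the 4 eIF2alpha kinase genes in CPM per kb of the longest coding transcript (vertical log axis), with 1 point per library, coloured by group with guide 1 and guide 2 left of non-targeting. EIF2AK1 lies between 59.8 and 66.9, and the points of EIF2AK4, EIF2AK2 and EIF2AK3 lie at or below 2.51.

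The guides were then compared with the non-targeting guide, gene by gene, in a fit over all tested genes. Of the 10 genes, 0 were called at an adjusted p under 0.05 for both guides together, 0 for guide 1, 0 for guide 2 and 0 for guide 2 against guide 1. The share called over all tested genes was 0.0196% for both guides together, 0.0294% for guide 1, 0.00979% for guide 2 and 0% for guide 2 against guide 1, so calls were rare for any gene. At an unadjusted p under 0.05 there were 3 of the 10 for both guides together (PHGDH, DDIT3 and CHAC1) and 5 for guide 1 (these 3, DDIT4 and TRIB3), with positive fold changes, and 0 for guide 2. The share of all genes past that mark with a positive fold change was 1.79%, 1.97% and 1.59% in the same order of comparisons. These counts moved with single libraries and with the scaling. Leaving out 1 library gave 1 to 5 for both guides, 1 to 7 for guide 1 and 0 to 2 for guide 2. For guide 1 the count was 2 without its replicate 1, 1 without its replicate 2 and 7 without non-targeting replicate 1. For both guides it was 5 without non-targeting replicate 1, 2 without guide 1 replicate 1 or guide 2 replicate 2, 1 without guide 1 replicate 2 or guide 2 replicate 1, and 6 with the GC trend of each library removed. For guide 2 it was 2 without non-targeting replicate 1, 3 with total counts in place of TMM and 3 with the GC trend removed. Over all genes, counts at an unadjusted p under 0.05 in either direction moved too. For both guides, guide 1 and guide 2 they were 428, 488 and 281 of 10212 as first fitted. They were 1057, 745 and 1508 of 10107 without non-targeting replicate 1. Of 10212 genes they were 855, 816 and 637 with the GC trend removed, and 401, 444 and 307 with total counts. DESeq2 also called 0 of the 10 in each comparison. Positive fold changes were found for 9 of 10 genes with both guides, 9 with guide 1 and 8 with guide 2, where 46.1%, 48.5% and 44.7% of all genes had one. With libraries scaled by their total counts in place of TMM these counts were 9, 7 and 9, where 47.8%, 43.7% and 54.1% of all genes were positive. Without non-targeting replicate 1 they were 8, 8 and 6, where 50.2%, 49.9% and 51.2% of all genes were positive, so the count for guide 2 was then near that of genes at large. The median log2 fold change of the 10 was 0.18 for both guides, 0.25 for guide 1 and 0.07 for guide 2, beside -0.01, -0.00831 and -0.02 over all tested genes. Without non-targeting replicate 1 the medians of the 10 were 0.12, 0.21 and 0.02, and leaving out 1 library moved that of guide 2 between 0.02 and 0.14. The lowest of these was without non-targeting replicate 1 and the highest without replicate 2; it was 0.04 without guide 2 replicate 1 and 0.12 without guide 2 replicate 2. The comparisons with non-targeting share the same 3 control libraries.

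**Figure D2:**
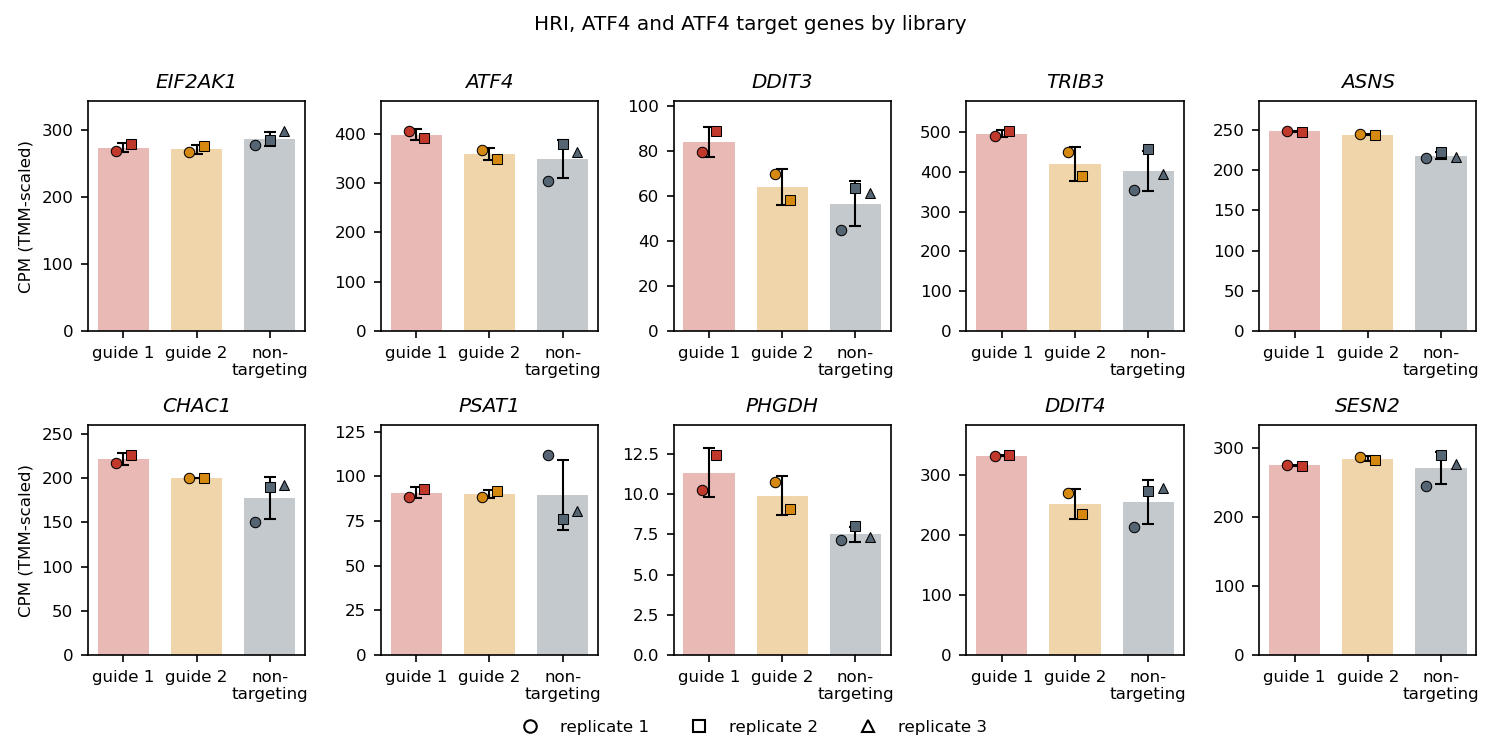
TMM-scaled CPM of the 10 genes (vertical axes, each from 0) with guide 1, guide 2 and the non-targeting guide. Each bar is the mean of its group, with the SD over 2, 2 and 3 libraries as the error bar, and each point is a library, shaped by replicate number. ASNS, CHAC1 and PHGDH are the genes whose 4 guide libraries all lie above all 3 non-targeting libraries.

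The kinase and its effector came first. EIF2AK1 stood at 269.6 and 279 CPM with guide 1, 267 and 276 CPM with guide 2, and 278, 286 and 299 CPM in the non-targeting libraries. Its levels were the steadiest of the 10, and the guide 2 libraries lay just below the lowest non-targeting one. Its exons overlap those of AIMP2 on the opposite strand, a gene with fewer counts in every library. The log2 fold change was -0.07 (SE 0.10) for guide 1 and -0.08 (SE 0.10) for guide 2, and for both guides it was -0.07 (SE 0.09, 95% interval -0.26 to 0.11, adjusted p = 0.998 by the edgeR quasi-likelihood test). ATF4 stood at 406 and 391 CPM with guide 1, 367 and 349.6 CPM with guide 2, and 305, 379 and 364 CPM in the non-targeting libraries. Both guide 1 libraries were above all others, the guide 2 libraries lay among the controls, and non-targeting replicate 1 was the lowest. Log2 fold changes were 0.19 (SE 0.11, 95% interval -0.05 to 0.44) for guide 1, 0.04 (SE 0.11, 95% interval -0.21 to 0.28) for guide 2 and 0.11 (SE 0.10, adjusted p = 0.998 by the edgeR quasi-likelihood test) for both. Without non-targeting replicate 1 the value for both guides was 0.02 (SE 0.06), and that for guide 2 turned to -0.05 (SE 0.07).

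DDIT3 and TRIB3 encode regulators downstream of ATF4. DDIT3, the gene of the transcription factor CHOP, which is known for promoting cell death under prolonged stress, stood at 79.4 and 88.9 CPM with guide 1, 69.7 and 58.2 CPM with guide 2, and 45.1, 63.6 and 61.3 CPM in the non-targeting libraries. The guide 1 libraries were highest, the guide 2 libraries overlapped the controls, and non-targeting replicate 1 was lowest. The group means were 84.2 ± 6.74 CPM (SD, n = 2) with guide 1, 64.0 ± 8.08 CPM (SD, n = 2) with guide 2 and 56.7 ± 10.1 CPM (SD, n = 3) in the non-targeting group. The log2 fold change was 0.57 (SE 0.15, 95% interval 0.24 to 0.90, adjusted p = 0.877 by the edgeR quasi-likelihood test) for guide 1, and DDIT3 ranked 21 of 10212 genes by p in that comparison. It was 0.18 (SE 0.15) for guide 2 and 0.37 (SE 0.13) for both. In 2 of the alternative fits DDIT3 was called higher with guide 1. With the GC trend of each library removed its value was 0.55 (SE 0.11, adjusted p = 0.0409 by the edgeR quasi-likelihood test), where 0.284% of all genes were called. Without non-targeting replicate 1 it was 0.43 (SE 0.10, adjusted p = 0.0187 by the edgeR quasi-likelihood test), where 0.584% were called. Over all alternatives its adjusted p for guide 1 ran from 0.0187 to 0.9995. Exons of DDIT3 overlap those of MARS and MBD6 on the opposite strand, and these libraries do not mark strand, so reads in the overlap cannot be told apart. MARS is the more abundant gene, with 2775 to 3739 counts a library against 511 to 952 for DDIT3, while MBD6 had at most 145. How many DDIT3 counts come from MARS transcripts was not tested. MARS itself, which encodes methionyl-tRNA synthetase, differed by 0.25 (SE 0.12) with guide 1 and 0.12 (SE 0.12) with guide 2.

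TRIB3, a pseudokinase that is induced by ATF4 and CHOP and holds back their activity, stood at 489 and 502 CPM with guide 1, 449 and 389 CPM with guide 2, and 355, 456 and 393 CPM in the non-targeting libraries. The guide 1 libraries were above all others, while the guide 2 libraries spanned much of the range of the controls. The fitted log2 value for TRIB3 was 0.30 (SE 0.12, adjusted p = 0.877 by the edgeR quasi-likelihood test) for guide 1, 0.06 (SE 0.12) for guide 2 and 0.18 (SE 0.10) for both.

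ASNS, PHGDH and PSAT1 are enzymes of amino acid synthesis. ASNS, asparagine synthetase, stood at 249 and 248 CPM with guide 1, 245 and 244 CPM with guide 2, and 216, 223 and 216 CPM in the non-targeting libraries. All 4 guide libraries lay within a few CPM of each other and above all 3 controls. The group means were 246 ± 2.41 CPM (SD, n = 4) with a guide and 218 ± 4.05 CPM (SD, n = 3) without. The log2 fold change was 0.18 (SE 0.09, 95% interval -0.01 to 0.36, adjusted p = 0.998 by the edgeR quasi-likelihood test) for both guides, 0.19 (SE 0.10) for guide 1 and 0.16 (SE 0.10) for guide 2. ASNS values moved little under the alternatives, between 0.17 and 0.19 for both guides, and were not called in any of them.

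PHGDH, the enzyme of the first step of serine synthesis, stood at 10.2 and 12.4 CPM with guide 1, 10.8 and 9.06 CPM with guide 2, and 7.15, 8.02 and 7.33 CPM in the non-targeting libraries. Again every guide library was above every control. Group means were 10.6 ± 1.40 CPM (SD, n = 4) with a guide and 7.50 ± 0.456 CPM (SD, n = 3) without, and the log2 fold change for both guides was 0.50 (SE 0.16, 95% interval 0.15 to 0.85, adjusted p = 0.998 by the edgeR quasi-likelihood test), at an unadjusted p of 0.00805. It was 0.60 (SE 0.19) for guide 1 and 0.40 (SE 0.19) for guide 2. PSAT1, the aminotransferase of the next step, gave another picture, at 88.6 and 93.0 CPM with guide 1, 88.6 and 91.7 CPM with guide 2, and 112, 76.0 and 80.5 CPM in the non-targeting libraries. The guide libraries were close together, and the controls spread on both sides of them, with non-targeting replicate 1 the highest of all 7. For both guides the fitted log2 value was 0.01 (SE 0.13, 95% interval -0.26 to 0.29). Without non-targeting replicate 1 it was 0.21 (SE 0.08), with an adjusted p of 0.253 by the edgeR test, and the sign turned to negative when either other control, or guide 1 replicate 2, was left out.

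CHAC1 encodes a gamma-glutamylcyclotransferase that breaks down glutathione. It stood at 217 and 226 CPM with guide 1, 200.011 and 200.4 CPM with guide 2, and 150.2, 189.8 and 193 CPM in the non-targeting libraries. The guide 1 libraries were highest, the guide 2 libraries came next and the controls were lowest, with no overlap among the 3 groups. Its log2 fold change was 0.25 (SE 0.10, 95% interval 0.03 to 0.47, adjusted p = 0.998 by the edgeR quasi-likelihood test) for both guides, 0.32 (SE 0.12) for guide 1 and 0.17 (SE 0.12) for guide 2. Non-targeting replicate 1 was the lowest library, and without it the value for both guides was 0.14 (SE 0.06).

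DDIT4 and SESN2 encode inhibitors of mTORC1, the kinase complex that couples nutrients to growth. DDIT4, also known as REDD1, stood at 332 and 334 CPM with guide 1, 270.2 and 235 CPM with guide 2, and 213, 274 and 279.6 CPM in the non-targeting libraries. The guide 1 libraries were nearly equal and above all others, and the guide 2 libraries fell within the range of the controls. The group means were 333 ± 1.42 CPM (SD, n = 2) with guide 1, 253 ± 25.0 CPM (SD, n = 2) with guide 2 and 256 ± 36.9 CPM (SD, n = 3) in the non-targeting group. Against the controls the log2 fold change was 0.38 (SE 0.13, 95% interval 0.11 to 0.65, adjusted p = 0.877 by the edgeR quasi-likelihood test) for guide 1 and -0.02 (SE 0.13, 95% interval -0.29 to 0.26) for guide 2. SESN2, a sestrin that senses leucine, stood at 276 and 274 CPM with guide 1, 287 and 282 CPM with guide 2, and 245, 289.9 and 277 CPM in the non-targeting libraries. Its guide 1 libraries lay between the lowest control and the other two, and its guide 2 libraries between the upper ones, with log2 fold changes of 0.02 (SE 0.11) for guide 1 and 0.07 (SE 0.11) for guide 2. For both guides its 95% interval was -0.15 to 0.24 on the log2 scale.

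Counted over the genes, with both guides 3 of 10 had all guide libraries above all controls and 0 had them all below, where 3.03% of all tested genes lay above and 2.37% below. With guide 1, 7 of 10 lay above the controls, namely ATF4, DDIT3, TRIB3, ASNS, CHAC1, PHGDH and DDIT4, where 11.3% of all genes did, and 0 lay below, where 10.3% did. With guide 2, 3 of 10 lay above, ASNS, CHAC1 and PHGDH, and EIF2AK1 lay below, where 8.16% and 6.86% of all genes did. Without non-targeting replicate 1, 4 of 10 lay above with both guides and 1 below, where 8.74% and 8.33% of all genes did, and PSAT1 and EIF2AK1 were those added. With guide 1, 8 then lay above and 2 below, where 19.5% and 18.6% did, and with guide 2, 4 lay above and 2 below, where 21.9% and 21.5% did. Summed over the 8 target genes, levels were 1741 and 1779 CPM with guide 1, 1620.4 and 1509 CPM with guide 2, and 1343, 1580.4 and 1508 CPM in the non-targeting libraries. Guide 1 was highest by this sum, and guide 2 replicate 2 was close to non-targeting replicate 3.

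**Figure D3:**
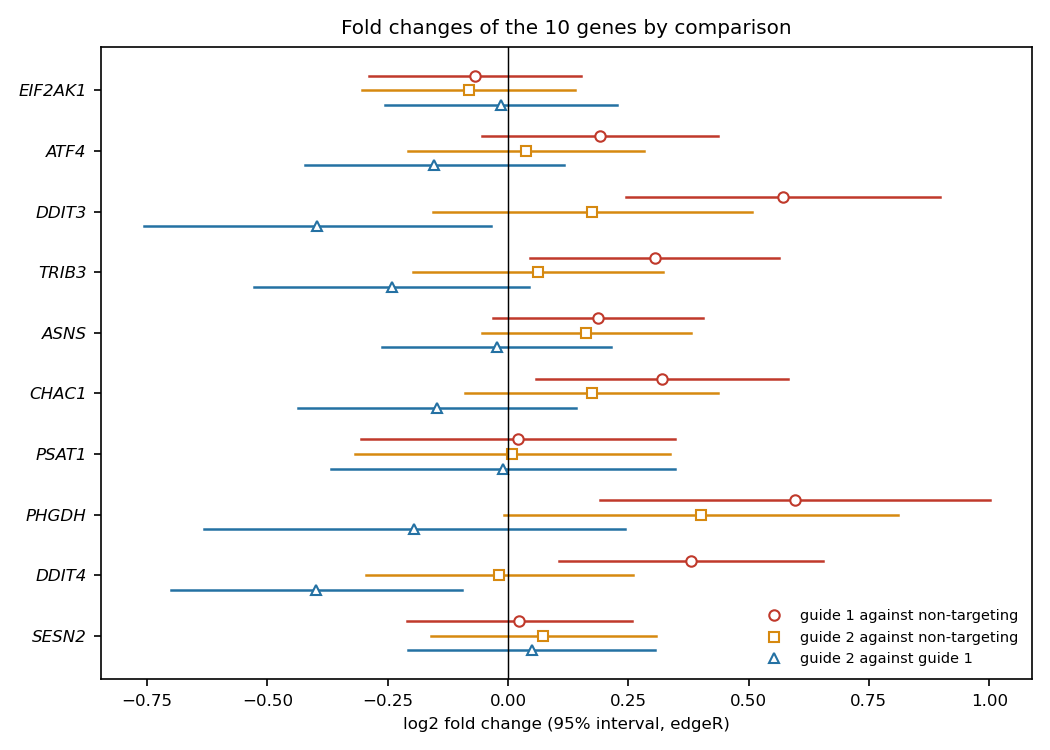
Log2 fold changes (horizontal axis) of the 10 genes with 95% intervals from the edgeR fit, for guide 1 against non-targeting (circles), guide 2 against non-targeting (squares) and guide 2 against guide 1 (triangles). All symbols are open because 0 of the 10 passed an adjusted p under 0.05. DDIT3 lies at 0.57 for guide 1 and 0.18 for guide 2, and DDIT4 at 0.38 and -0.02.

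Fold changes were smaller for most of the 8 target genes when non-targeting replicate 1 was left out. The log2 value of DDIT3 with guide 2 was then 0.04 (SE 0.10), and with both guides 0.23 (SE 0.08). TRIB3 was at 0.22 (SE 0.07) with guide 1 and -0.02 (SE 0.07) with guide 2, and CHAC1 at 0.21 (SE 0.07) with guide 1 and 0.07 (SE 0.07) with guide 2. DDIT4 was at 0.26 (SE 0.07) with guide 1 and -0.13 (SE 0.07) with guide 2, and at 0.07 (SE 0.06) with both. ATF4 with guide 1 was at 0.10 (SE 0.07). The values of ASNS, at 0.18 (SE 0.07) with guide 1 and 0.16 (SE 0.07) with guide 2, and of PHGDH, at 0.56 (SE 0.19) with guide 1 and 0.37 (SE 0.19) with guide 2, were close to those from all 7 libraries. PSAT1 was at 0.22 (SE 0.09) with guide 1 and 0.21 (SE 0.09) with guide 2, where all its guide libraries lay above both remaining controls. SESN2 was at -0.05 (SE 0.07) with guide 1 and 0.01 (SE 0.07) with guide 2, and EIF2AK1 at -0.09 (SE 0.07) with guide 1 and -0.10 (SE 0.07) with guide 2. Apart from DDIT3 with guide 1, 0 of these were called.

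Whether the guides differed from each other was tested directly. In guide 2 against guide 1, 9 of the 10 genes had negative fold changes and 1 a positive one, where 50.3% of all genes were positive. Their median was -0.15, beside 0.00146 over all genes. With the GC trend of each library removed, that median was -0.07, beside -0.00366 over all genes, and 1 of the 10 was again positive. With total counts in place of TMM, 4 of the 10 were positive, where 61.9% of all genes were. EIF2AK1, ASNS and PSAT1 then joined SESN2. The median of the 10 was -0.08 with that scaling, beside 0.07 over all genes. The count called was 0, and at an unadjusted p under 0.05 there were 2, DDIT4 and DDIT3, both lower with guide 2, where 1.27% of all genes were. That count was 4 without non-targeting replicate 1, 0 without either guide 1 library or without guide 2 replicate 2, and 1 with total counts or the replicate block. Over all genes, those at an unadjusted p under 0.05 in either direction numbered 292 of 10212 as first fitted. They numbered 1316 of 10107 without non-targeting replicate 1. Of 10212 genes it was 302 with total counts and 202 with the replicate block. The largest differences as first fitted were those of DDIT4, at -0.40 (SE 0.14, 95% interval -0.70 to -0.10, adjusted p = 0.983 by the edgeR quasi-likelihood test), and of DDIT3, at -0.40 (SE 0.17, 95% interval -0.76 to -0.04, adjusted p = 0.983 by the edgeR quasi-likelihood test). TRIB3 differed by -0.24 (SE 0.13), ATF4 by -0.15 (SE 0.13), PHGDH by -0.19 (SE 0.20) and CHAC1 by -0.15 (SE 0.13). EIF2AK1, at -0.01 (SE 0.11), ASNS, at -0.02 (SE 0.11), and PSAT1, at -0.01 (SE 0.17), were nearest to 0, and SESN2 was at 0.05 (SE 0.12). In 6 of 10 genes both guide 2 libraries lay below both guide 1 libraries, where 22.2% of all genes did, and in 1 they lay above, where 21.9% did. The non-targeting libraries also take part in this fit, through scaling, filtering and the pooled estimate of spread, and when replicate 1 of them was left out DDIT4 was called lower with guide 2, at -0.40 (SE 0.07, adjusted p = 0.00502 by the edgeR quasi-likelihood test), in a fit that called 0.317% of all genes. Over its alternatives that adjusted p ran from 0.00502 to 1.

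Of the 10 genes, 5 followed each other closely from library to library. ATF4, DDIT3, TRIB3, CHAC1 and DDIT4 had pairwise Pearson correlations of log2 CPM of 0.83 to 0.95 over the 7 libraries, and of 0.64 to 0.93 over the 6 without non-targeting replicate 1. These 5 were picked after their values were seen, and the points share group, scaling and library. In non-targeting replicate 1 DDIT3 stood at -0.53 on the log2 scale relative to its mean over the 7 libraries, CHAC1 at -0.38, DDIT4 at -0.36, PHGDH at -0.35, TRIB3 at -0.28 and ATF4 at -0.26. EIF2AK1 was at -0.01 there and PSAT1 at 0.32. PSAT1 has the lowest transcript GC content of the 10, at 42.3%, and CHAC1 the highest, at 62.6%, while DDIT3, at 49.7%, lies between. With the GC trend of each library removed, the fold change of DDIT3 for both guides was 0.36 (SE 0.09), that of CHAC1 0.21 (SE 0.06), that of PHGDH 0.45 (SE 0.15) and that of ASNS 0.17 (SE 0.06). The median of the 10 moved from 0.18 to 0.14 for both guides, from 0.25 to 0.20 for guide 1 and from 0.07 to 0.08 for guide 2. Other genes were less steady: over all alternatives TRIB3 ran from 0.087 to 0.29 for both guides and from 0.15 to 0.41 for guide 1.

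**Figure D4:**
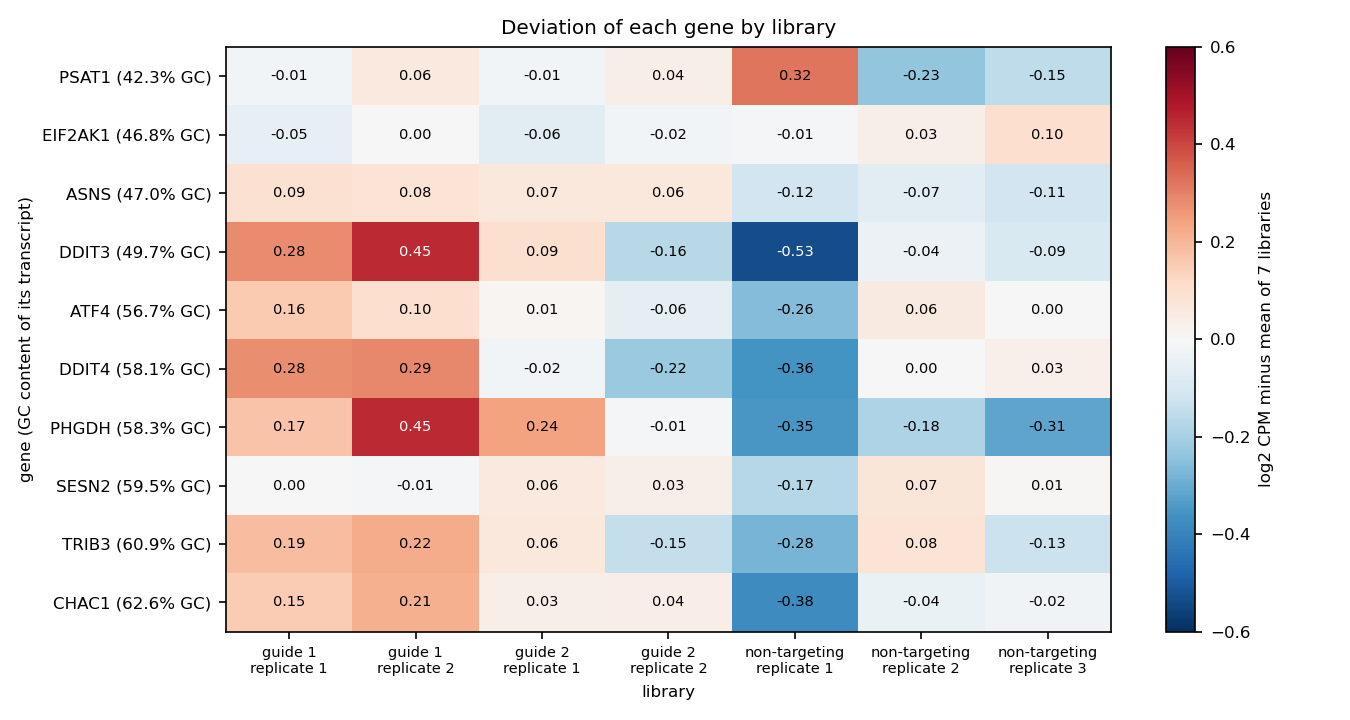
Log2 CPM of each of the 10 genes (rows, ordered by transcript GC content) minus its mean over the 7 libraries (columns), as colour and as a printed value. Non-targeting replicate 1 is at -0.53 for DDIT3 and -0.38 for CHAC1 but at 0.32 for PSAT1, and both guide 1 libraries are positive for DDIT3, DDIT4, TRIB3 and CHAC1.

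The genes whose profile over the 7 libraries was most like that of EIF2AK1, among 6603 genes with a mean of at least 5 CPM, were CASS4, CNOT2 and SIRT3, with Pearson r of 0.97, 0.96 and 0.96 on log2 CPM. Those most like ATF4 were PLXNB2, CYTH2 and MGST3, with r of 0.999, 0.991 and 0.987. For ATF4, 335 genes passed an r of 0.9, against 20 for EIF2AK1, and over 7 libraries such values describe these libraries only.

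The rest of the pathway was read from the 73 further genes, of which 66 were abundant enough to test and 0 were called in any of the 4 comparisons, in this fit or under any of the 14 alternatives. For both guides 46 of the 66 had positive fold changes, with a median of 0.06, where 46.1% of all genes were positive. With total counts in place of TMM 47 were positive, where 47.8% of all genes were. When single libraries were left out 38 to 49 were, the fewest without non-targeting replicate 3. The share over all genes then ran from 43.4% to 50.2%, and was 47.9% without that library. Unless said otherwise, the genes named from each list were up to 4 of smallest unadjusted p for both guides. Where all their guide libraries lay above the controls, that rests in part on this choice, and 3.03% of all tested genes lay so. Of 16 genes of eIF2, its kinases and phosphatases and its exchange factor eIF2B, 10 were positive. EIF2AK4 was at -0.18 (SE 0.17), EIF2S3, the gamma subunit of eIF2, at -0.15 (SE 0.12), EIF2B5 at 0.24 (SE 0.19) and PPP1R15B, the constitutive partner of the eIF2alpha phosphatase, at -0.13 (SE 0.11). PPP1R15A, which encodes GADD34, the stress-induced partner of that phosphatase, was added after its values were seen, for its level. It stood at 1393 and 1412 CPM with guide 1, 1322 and 1259.6 CPM with guide 2, and 1090.1, 1424 and 1343 CPM in the non-targeting libraries. The groups overlapped, and the log2 fold change for both guides was 0.07 (SE 0.10).

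Among 7 tested partners and relatives of ATF4, 4 were positive. ATF3, a repressor induced in the response, was at 0.19 (SE 0.12) for both guides, CEBPG, a dimer partner of ATF4, at 0.09 (SE 0.10), NFE2L2, the antioxidant factor NRF2, at -0.11 (SE 0.10) and FOXO3 at -0.13 (SE 0.11). Of 11 further genes of amino acid and one-carbon synthesis, 9 were positive, with a median of 0.19. ASS1, argininosuccinate synthase, stood at 12.1 and 10.0 CPM with guide 1, 11.5 and 8.50 CPM with guide 2, and 6.80, 6.03 and 7.33 CPM in the non-targeting libraries. Its guide libraries were all above the controls, at 0.65 (SE 0.18) for both guides, and it was not called (adjusted p = 0.998, edgeR). SHMT2, the mitochondrial serine hydroxymethyltransferase, was at 0.23 (SE 0.11), CBS, cystathionine beta-synthase, at 0.21 (SE 0.10), and CTH, which makes cysteine from cystathionine, at 0.19 (SE 0.12).

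Of 13 tested genes of aminoacyl-tRNA synthetases and the tRNA exporter XPOT, 12 had small positive values for both guides, with a median of 0.07 and a largest value of 0.20. That count was 8 without non-targeting replicate 3 and 9 with the replicate block, where 47.9% and 48.5% of all genes were positive. It was 13 without non-targeting replicate 1 or with the GC trend removed, where 50.2% and 48.6% were. CARS was at 0.20 (SE 0.10), AARS at 0.19 (SE 0.11), MARS at 0.18 (SE 0.10) and GARS at 0.10 (SE 0.08). GARS stood at 766 and 793 CPM with guide 1, 745 and 768 CPM with guide 2, and 713, 736 and 701 CPM in the non-targeting libraries, with every guide library above every control by a small margin. Amino acid transporter genes had a median of -0.03, with 4 of 9 positive. SLC3A2 and SLC7A11, which encode the subunits of the cystine importer, were at 0.15 (SE 0.10) and 0.10 (SE 0.13), SLC7A1 at 0.07 (SE 0.09) and SLC1A5, a glutamine transporter, at -0.07 (SE 0.10).

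Of 10 tested other targets, 7 were positive for both guides. VEGFA, a vascular growth factor, stood at 6.99 and 5.98 CPM with guide 1, 7.20 and 7.65 CPM with guide 2, and 4.86, 5.13 and 3.99 CPM in the non-targeting libraries. Its guide libraries did not overlap the controls, and at 0.57 (SE 0.19) it was not called (adjusted p = 0.998, edgeR). HERPUD1, a component of the degradation machinery of the endoplasmic reticulum, stood at 157 and 165 CPM with guide 1, 158 and 153 CPM with guide 2, and 148, 147 and 148 CPM in the non-targeting libraries, again without overlap, at 0.10 (SE 0.09). EIF4EBP1, a repressor of translation controlled by mTORC1, was at 0.25 (SE 0.13) and RIT1, a small GTPase, at -0.16 (SE 0.11). GDF15, a secreted stress hormone, was added after its values were seen, as the most abundant gene of the list. It stood at 7371 and 7058 CPM with guide 1, 6347 and 6261 CPM with guide 2, and 5670.0, 7018 and 7436 CPM in the non-targeting libraries, with overlapping groups, at 0.01 (SE 0.10).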

How the data were processed

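RNA was measured in 7 libraries made by Smart-seq2 with Nextera indexing, per the labels' protocols; Smart-seq2 is a full-length cDNA method that marks neither strand nor molecule. What the authors deposited is a table of unscaled read counts, 1 row per gene symbol, as its values and headers show. STAR and GRCh37 (hg19) are named in the submitters' processing notes; the counting program is not given in the sources used here, nor is the annotation. Columns were matched to samples by name.

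Counts were tested with edgeR 4.0.16 (R 4.3.3): filterByExpr with a minimum count of 10, TMM scaling, and a quasi-likelihood fit of group over all 7 libraries in 3 groups, with 4 residual degrees of freedom and a biological coefficient of variation of 12.4%. P-values were Benjamini-Hochberg adjusted over all 10212 genes, two-sided, and called under 0.05. A standard error is the fold change divided by the root of its F statistic. Alternatives were DESeq2 1.42.0, other scalings, no filter, a replicate block, removal of a lowess trend on transcript GC content (92.3% of tested genes matched by symbol in GENCODE v29), and leaving out each library. The fit and the GC step were tested on simulated data. GENCODE v29 lists 4 pseudogene copies each of ATF4, ASNS and PSAT1, so reads that align to several places make these uncertain. Replicates of a group differed by more than sampling noise. The genes, lists and tests were chosen with earlier results of these data known. Named genes were the 10, TMCC2, up to 4 genes per list by unadjusted p (group mean 5 CPM or more), and the 3 genes most like EIF2AK1 and ATF4; the other kinases, PPP1R15A and GDF15 were added after their values were seen.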

Additional observations from a re-analysis of the deposited data

How the results depend on the processing

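Over the 10 genes and 4 comparisons, 525 of 560 alternative values kept the sign of the value reported, 3 gained a call and 0 lost one. The 35 that turned were at most 0.10 in size and belonged to 11 fold changes near 0; the cause was not tested. Counts of called genes in the order both guides, guide 1, guide 2, and guide 2 against guide 1 were 2, 3, 1 and 0 as reported, 4, 5, 3 and 1 with DESeq2, 8, 19, 4 and 2 without a filter on low counts, and 10, 29, 4 and 2 with the GC trend removed. With DESeq2 size factors they were 2, 3, 1 and 0, and with total counts 2, 2, 1 and 0. When single libraries were left out they ran from 1 to 53, 1 to 59, 1 to 128 and 0 to 32, and the highest count in each was without non-targeting replicate 1. Of the 10 genes, 1 (DDIT3) was called for guide 1 with the GC trend removed, 0 to 1 were called for guide 1 and for guide 2 against guide 1 when a library was left out, and 0 otherwise. Where a library leaves a guide with 1, that library is assumed to vary like the other groups.

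With the replicate number as a block the counts were 1, 2, 1 and 1, and with the block and the GC trend removed they were 9, 13, 2 and 1. The labels do not say what a shared number means, and no comparison has 3 pairs; deviations of same-numbered libraries correlated at -0.19 to 0.03 across genes, so the block is given here only. With the block, PSAT1 was at -0.040, -0.035 and -0.046 for both guides, guide 1 and guide 2, and DDIT4 at 0.056 for guide 2. With the block and the GC trend removed, SESN2 was at -0.018 for both guides and -0.10 for guide 1, and DDIT4 at 0.026 for guide 2. With the GC trend alone removed, SESN2 was at -0.071 for guide 1. With total counts, guide 1 gave -0.018 for PSAT1 and -3.2e-05 for SESN2, guide 2 gave 0.029 for DDIT4, and guide 2 against guide 1 gave 0.053 for EIF2AK1, 0.043 for ASNS and 0.056 for PSAT1.

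With single libraries left out, fold changes of PSAT1 ran from -0.091 to 0.21 for both guides, -0.085 to 0.22 for guide 1, -0.10 to 0.21 for guide 2 and -0.047 to 0.024 for guide 2 against guide 1. SESN2 ran from -0.019 to 0.10 for both guides and -0.045 to 0.076 for guide 1. For guide 2, ATF4 ran from -0.050 to 0.10, TRIB3 from -0.043 to 0.16 and DDIT4 from -0.13 to 0.078. For guide 2 against guide 1, EIF2AK1 ran from -0.040 to 0.015. PHGDH rests on the fewest counts of the 10, and its 95% interval is the widest for both guides together.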
